A study of Rattus norvegicus with 8 samples.

Results

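Chemokines and secreted cytokines are the signals by which a tissue calls in, keeps and activates leukocytes. The genes described here were 10, chosen by name and not by their measured values, of 12784 genes with a deposited value: the CXC chemokines Cxcl1, Cxcl10, Cxcl12 and Cxcl16, the CC chemokines Ccl2 and Ccl7, the CX3C chemokine Cx3cl1, and the cytokines Csf1, Il6 and Il18. All 10 were present in the table. They had 11 transcripts in all, 1 for each of 9 genes and a pair for Csf1, and transcript values were summed for each gene. The unit was FPKM, a value scaled for transcript length and for library size, so levels are per length and can be set side by side between genes.

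The data came from neonatal rat ventricular cardiomyocytes (NRVCMs), primary heart muscle cells of newborn rats that were separated from fibroblasts on a Percoll gradient. One group of 4 libraries received the HectD3 virus, an adenovirus that drives HectD3, an E3 ubiquitin ligase, from a CMV promoter. The other 4 received the LacZ virus, the same kind of adenovirus carrying the gene of a bacterial beta-galactosidase in place of HectD3. Both groups were kept for 24 h in medium with 10% serum before transduction and for 72 h with virus in serum-depleted medium afterwards. All cells therefore carried an adenovirus, and untransduced cells are not analysed here. The methods name Wistar rats and the reporting summary Sprague Dawley rats. The 4 libraries of a group are described as biological replicates, and nothing further says which rats or culture days they came from. Poly(A) RNA was sequenced from whole cultures, where fewer cells of a type and less RNA per cell cannot be told apart.

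Chemokines are small secreted proteins that bind G protein-coupled receptors on leukocytes and direct their migration along a gradient. In the heart, Ccl2 and Ccl7 are known for drawing in monocytes, Cxcl1 for drawing in neutrophils and Cxcl10 for drawing in activated T cells, while Csf1 keeps macrophages alive. Many of these genes are switched on by NF-kB after inflammatory signals, and Cxcl10 also by interferons.

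The overexpressed gene matched the labels in every library. Hectd3 held 547, 915, 590 and 161 FPKM in HectD3 libraries 1 to 4, lowest in HectD3 4, and 6.18 to 7.89 FPKM in the LacZ libraries. It was the only gene of 12567 tested that passed an adjusted p of 0.05 in either direction. Libraries of the same virus also differed from each other. HectD3 4, LacZ 1 and LacZ 2 lay at the negative end of the first principal component, at -13.4, -40.8 and -27.1, and this component held 58.4% of the variance. The other 5 libraries lay between 9.01 and 18.8. The difference of each of the 10 genes is therefore also given for HectD3 1 to 3 against LacZ 3 and 4, a selection of libraries by their position on that component and not a group of the study. The summed level of 8 cardiomyocyte markers overlapped between the viruses, at 15150 to 19660 FPKM in HectD3 libraries and 13300 to 20030 FPKM in LacZ libraries, and no marker was at 0 in all libraries. Of these 8 markers, 5 had lower and 3 had higher levels with HectD3. Myh6 and Myh7 were lower with HectD3 at a nominal p below 0.05 in limma, and the groups did not overlap for either. Among all genes tested, 2.81% had no overlap in the lower direction. The summed level rests mostly on Actc1, at 3149 to 9411 FPKM over the libraries, and Tnnt2, at 4787 to 5501 FPKM.

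With the HectD3 virus, 3 of the 10 genes were lower at a nominal p below 0.05, before adjustment for the number of genes, in limma: Cxcl10, Csf1 and Il18. None was higher. Among all 12567 genes tested, 4.28% were lower and 2.87% were higher by this rule. No member of the family passed after Benjamini-Hochberg adjustment over all genes tested, by which 0.0% of genes were lower and 0.00796% higher; the lowest adjusted p in limma, that of Cxcl10, was 0.443. Cxcl10 was also the only one whose groups did not overlap, a pattern that 2.81% of all genes showed in the lower direction and 2.44% in the higher. Without HectD3 2, and without HectD3 3, Cxcl10 was the 1 gene left that was lower at a nominal p below 0.05. Without HectD3 4 the groups did not overlap for 3 genes, Cxcl10, Cxcl12 and Csf1. The shares of all genes were not computed for these settings, so these counts have nothing to be set beside. In mean log2 level 7 of the 10 genes were lower and 3 higher, against 55.5% lower and 44.5% higher among all genes. The median difference of the 10 was -0.17 on the log2(FPKM + 1) scale, HectD3 minus LacZ, beside -0.02 for all genes. It was -0.08 without LacZ 3, and -0.02 over the 7 genes that averaged 5 FPKM or more.

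**Figure D1:**
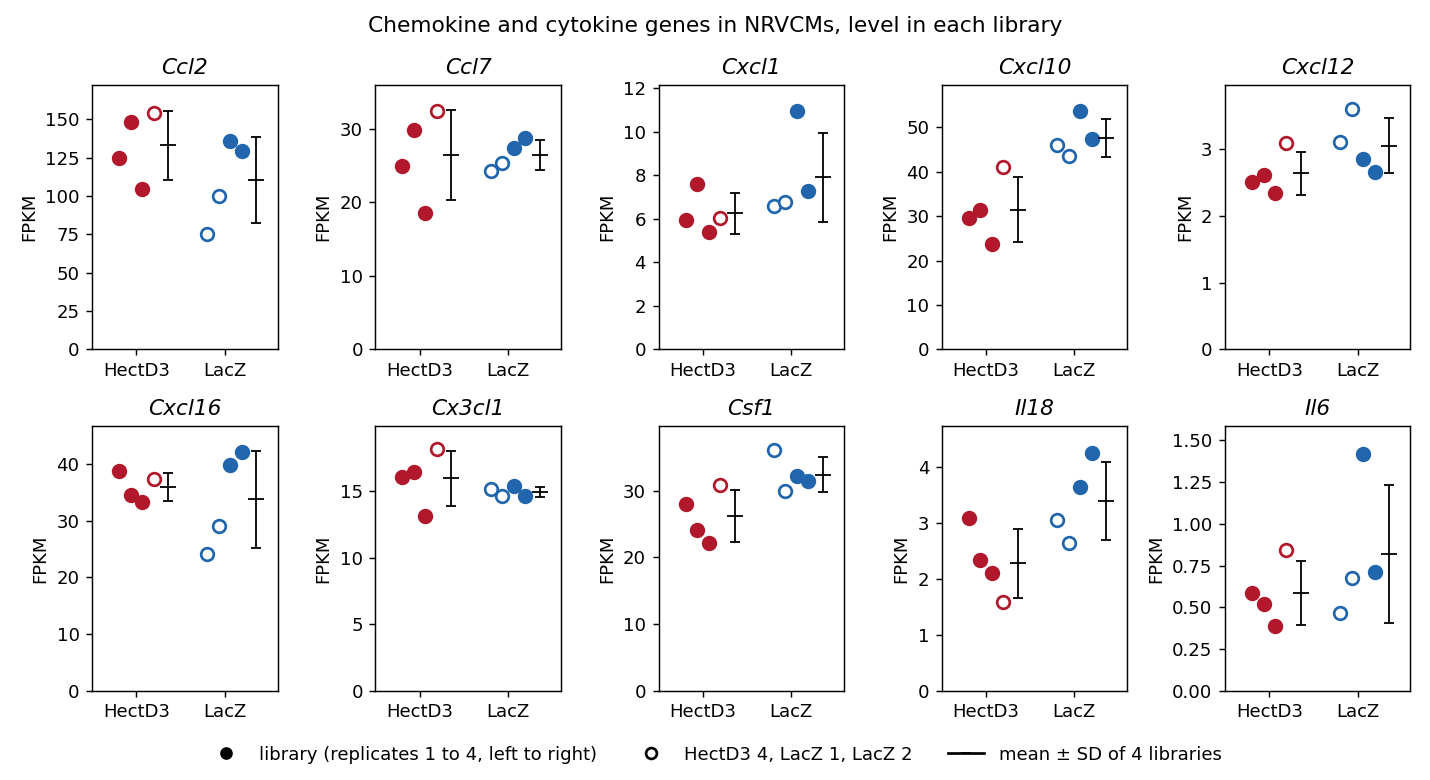
Level of each chemokine or cytokine gene in FPKM (vertical axes, each from 0) in the 4 HectD3 libraries (red) and the 4 LacZ libraries (blue), with mean and SD; open points are HectD3 4, LacZ 1 and LacZ 2, which lay apart on the first principal component. The groups are separate for Cxcl10, at no more than 41.2 FPKM in HectD3 libraries and no less than 43.7 FPKM in LacZ libraries, and overlap for the other 9 genes.

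Cxcl10, the interferon-induced ligand of the T cell receptor CXCR3, had the largest difference of the 10 genes. Its level was 29.6, 31.5, 23.7 and 41.2 FPKM in HectD3 libraries 1 to 4, against 45.9, 43.7, 53.7 and 47.5 FPKM in LacZ libraries 1 to 4. Every HectD3 library was below every LacZ library, although HectD3 4 came within a few FPKM of LacZ 2. The means were 31.5 ± 7.26 FPKM and 47.7 ± 4.28 FPKM (SD, n = 4 each), so the HectD3 mean was 34.0% below. The log2 difference was -0.61 (standard error 0.15, 95% interval -0.94 to -0.27) with a nominal p of 0.00271 and an adjusted p of 0.443 in limma. A two-sided exact permutation test over the 70 assignments of the libraries gave p = 0.0286, the smallest that 4 against 4 allows. In HectD3 1 to 3 against LacZ 3 and 4 the log2 difference was -0.83, with an adjusted p of 0.111 in limma. Cxcl10 and Ccl2 were among the genes the study displayed from these libraries, so their values here are not independent of that choice. In the deposited table Cxcl10 has 1 protein-coding transcript, on the plus strand of chromosome 14 from 17210733 to 17212930 of a build not given in the sources used here.

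A stretch before the transcription start of Cxcl10 is shown because its letters hold motifs of both of its known kinds of regulator, and pieces of 3 other promoters are shown for comparison. RefSeq sequences of assembly GRCr8 were matched for 8 of the 10 genes, not for Ccl2 and Csf1. The 250 bases before each start were searched on both strands for 4 patterns: GAAANNGAAA (the interferon-stimulated response element), GGGNNNNTCC (NF-kB), TTCNNNGAA (the gamma-activated sequence) and TGANTCA (AP-1). Capitals mark the matches, and overlapping NF-kB matches on opposite strands were merged into 1 run.
Cxcl10, chr14:15988816-15989065, plus strand: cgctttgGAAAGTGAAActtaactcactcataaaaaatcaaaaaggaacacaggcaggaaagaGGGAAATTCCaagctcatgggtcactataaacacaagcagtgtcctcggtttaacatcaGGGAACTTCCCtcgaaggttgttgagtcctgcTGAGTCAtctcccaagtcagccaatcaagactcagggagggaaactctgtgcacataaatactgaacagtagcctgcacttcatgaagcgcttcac
Ccl7, chr10:67514002-67514065, plus strand: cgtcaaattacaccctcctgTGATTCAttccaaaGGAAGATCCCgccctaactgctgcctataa
Cxcl1, chr14:17479375-17479443, minus strand: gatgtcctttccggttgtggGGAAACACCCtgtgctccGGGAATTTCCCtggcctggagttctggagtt
Il6, chr4:5894613-5894663, minus strand: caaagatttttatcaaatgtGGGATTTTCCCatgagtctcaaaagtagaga

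Of the 8 promoters searched, the one of Cxcl10 alone held the interferon-stimulated response element pattern, 243 to 234 bases before the start, and 3.41% of all 33469 promoters of this length held it. The NF-kB pattern was found before Cxcl10, Ccl7, Cxcl1 and Il6, and in 15.2% of all promoters. In Cxcl10 it began 187 and 128 bases before the start. The AP-1 pattern was found before Cxcl10 and Ccl7, and in 6.34% of all promoters. No match to the gamma-activated sequence was found in these 8 windows, and 7.67% of all promoters held one. Of the 4 genes with the NF-kB pattern, HectD3 minus LacZ on the log2 scale was -0.61 for Cxcl10, -0.28 for Cxcl1, -0.18 for Il6 and -0.02 for Ccl7. In HectD3 1 to 3 minus LacZ 3 and 4 it was -0.83, -0.45, -0.44 and -0.21 in the same order of genes. The searched genes without the NF-kB pattern were at -0.43 for Il18, -0.16 for Cxcl12, 0.12 for Cxcl16 and 0.08 for Cx3cl1 over all 8 libraries. In HectD3 1 to 3 minus LacZ 3 and 4 these genes were at -0.50, -0.11, -0.20 and 0.01. Differences between these genes were not tested. A match is a run of letters and not a measured binding site.

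Cxcl1, the rat counterpart of the neutrophil chemoattractants that bind CXCR2, was low and uneven. Its level was 5.97, 7.62, 5.39 and 6.04 FPKM in HectD3 libraries, against 6.61, 6.78, 10.98 and 7.28 FPKM in LacZ libraries. HectD3 1, 3 and 4 were below the lowest LacZ library, HectD3 2 was above all LacZ libraries but LacZ 3, and LacZ 3 stood far above the other 7 libraries. The means were 6.25 ± 0.954 FPKM in HectD3 libraries and 7.91 ± 2.06 FPKM in LacZ libraries (SD, n = 4 each). The log2 difference of -0.28 had a 95% interval from -0.65 to 0.09 and an adjusted p of 0.724 in limma. It was -0.13 without LacZ 3 and -0.45 in HectD3 1 to 3 minus LacZ 3 and 4.

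Cxcl12, which holds progenitor cells and leukocytes in place through CXCR4, was among the least abundant of the 10. HectD3 libraries held 2.51, 2.61, 2.34 and 3.08 FPKM, against 3.10, 3.60, 2.85 and 2.65 FPKM in LacZ libraries. The groups overlapped, and it was the only gene of the 10 that was higher in both LacZ 1 and LacZ 2 than in LacZ 3 and LacZ 4. Its log2 difference was -0.16 (95% interval -0.42 to 0.11, adjusted p = 0.736 in limma). It was -0.09 without LacZ 2 and -0.11 in HectD3 1 to 3 minus LacZ 3 and 4.

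Cxcl16 is made as a membrane protein that ADAM10 cleaves to release the chemokine, which binds CXCR6. It held 38.8, 34.5, 33.4 and 37.5 FPKM in HectD3 libraries, against 24.1, 29.1, 39.8 and 42.1 FPKM in LacZ libraries. The HectD3 libraries lay between the low pair LacZ 1 and LacZ 2 and the high pair LacZ 3 and LacZ 4. The means were 36.03 ± 2.50 FPKM in HectD3 libraries and 33.8 ± 8.57 FPKM in LacZ libraries (SD, n = 4 each), with a log2 difference of 0.12 (95% interval -0.25 to 0.49, adjusted p = 0.836 in limma). The sign depended on the libraries: HectD3 1 to 3 minus LacZ 3 and 4 gave -0.20, and leaving out LacZ 1 alone gave -0.02.

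Ccl2, the main monocyte chemoattractant acting on CCR2, was the most abundant of the 10 genes. It held 125, 148, 105 and 154 FPKM in HectD3 libraries, against 75.3, 100.4, 136 and 129.6 FPKM in LacZ libraries. All 4 HectD3 libraries were above LacZ 1 and LacZ 2, and only HectD3 2 and HectD3 4 were above LacZ 3. The means were 133 ± 22.7 FPKM in HectD3 libraries and 110.3 ± 28.0 FPKM in LacZ libraries (SD, n = 4 each). The log2 difference was 0.29 (95% interval -0.15 to 0.73, adjusted p = 0.729 in limma). It was 0.12 without LacZ 1, 0.034 with library weights and -0.09 in HectD3 1 to 3 minus LacZ 3 and 4.

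Ccl7, a neighbour of Ccl2 on chromosome 10, also draws in monocytes. Its level was 25.01, 29.9, 18.6 and 32.5 FPKM in HectD3 libraries, against 24.3, 25.4, 27.5 and 28.7 FPKM in LacZ libraries. The HectD3 libraries were spread on both sides of the LacZ libraries, with means of 26.5 ± 6.12 FPKM and 26.5 ± 1.99 FPKM (SD, n = 4 each). The log2 difference of -0.02 had a 95% interval from -0.38 to 0.33, which does not exclude changes of that size. It was 0.13 without HectD3 3, -0.13 without HectD3 4 and -0.21 in HectD3 1 to 3 minus LacZ 3 and 4. Ccl2 starts at 69412017 and Ccl7 at 69423086 in the deposited table, both on the plus strand.

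Cx3cl1, or fractalkine, is anchored in the membrane and is both an adhesion molecule and, once shed by ADAM10 or ADAM17, a chemoattractant for cells with CX3CR1. It varied the least of the 10 genes, with a highest library 1.38 times the lowest. HectD3 libraries held 16.1, 16.4, 13.2 and 18.2 FPKM, against 15.2, 14.6, 15.4 and 14.6 FPKM in LacZ libraries. HectD3 1, 2 and 4 were above every LacZ library and HectD3 3 below every one. The log2 difference was 0.08 (95% interval -0.15 to 0.31, adjusted p = 0.828 in limma). It was 0.16 without HectD3 3, 0.02 without HectD3 4 and 0.01 in HectD3 1 to 3 minus LacZ 3 and 4.

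Csf1, the growth and survival factor of macrophages, was lower in most HectD3 libraries. It held 28.0, 24.0, 22.1 and 30.8 FPKM in HectD3 libraries, against 36.02, 30.0, 32.2 and 31.4 FPKM in LacZ libraries. HectD3 1 to 3 were below the lowest LacZ library, and HectD3 4 lay between LacZ 2 and LacZ 4. The means were 26.2 ± 3.91 FPKM in HectD3 libraries and 32.4 ± 2.58 FPKM in LacZ libraries (SD, n = 4 each). The log2 difference was -0.30 (standard error 0.11, 95% interval -0.56 to -0.05, nominal p = 0.0245 and adjusted p = 0.671 in limma), and the two-sided exact permutation test gave p = 0.0571. Both transcripts of the gene, on the minus strand of chromosome 2, had lower means with HectD3. The more abundant one averaged 23.1 ± 3.78 FPKM in HectD3 libraries and 28.3 ± 2.52 FPKM in LacZ libraries, and the other averaged 3.15 ± 0.496 FPKM in HectD3 libraries and 4.14 ± 0.602 FPKM in LacZ libraries (SD, n = 4 each). HectD3 1 to 3 minus LacZ 3 and 4 gave -0.36 for the gene. Without HectD3 2, HectD3 3 or LacZ 1 the nominal p in limma lay above 0.05, with a log2 difference of -0.27, -0.23 and -0.25.

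Il18, a cytokine that is stored as a precursor and cleaved by caspase-1, was the third gene lower at a nominal p below 0.05. It held 3.08, 2.34, 2.10 and 1.59 FPKM in HectD3 libraries, against 3.05, 2.63, 3.63 and 4.24 FPKM in LacZ libraries. HectD3 2, 3 and 4 were below the lowest LacZ library and HectD3 1 was above LacZ 1 and LacZ 2. The means were 2.28 ± 0.620 FPKM in HectD3 libraries and 3.39 ± 0.701 FPKM in LacZ libraries (SD, n = 4 each), so the HectD3 mean was 32.8% below. The log2 difference was -0.43 (standard error 0.17, 95% interval -0.81 to -0.05, nominal p = 0.0310 and adjusted p = 0.677 in limma), and the two-sided exact permutation test gave p = 0.0857. At such levels the added 1 FPKM makes the log2 difference smaller than the ratio of the means. HectD3 1 to 3 minus LacZ 3 and 4 gave -0.50. Without HectD3 2, 3 or 4, or without LacZ 3 or 4, the nominal p in limma lay above 0.05, with log2 differences between -0.44 and -0.32. Il18 was the only gene of the 10 at its lowest in HectD3 4.

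Il6, the acute-phase cytokine that signals through gp130, was close to the lower limit of the genes tested. It held 0.587, 0.519, 0.385 and 0.841 FPKM in HectD3 libraries, against 0.465, 0.674, 1.42 and 0.712 FPKM in LacZ libraries. The groups overlapped, and LacZ 3 was again the highest library, as for Cxcl1 and Cxcl10. The log2 difference was -0.18 (95% interval -0.55 to 0.19, adjusted p = 0.765 in limma). It was -0.03 without LacZ 3 and -0.44 in HectD3 1 to 3 minus LacZ 3 and 4. The depth of the libraries is unknown, so no counting error can be put on so low a value.

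**Figure D2:**
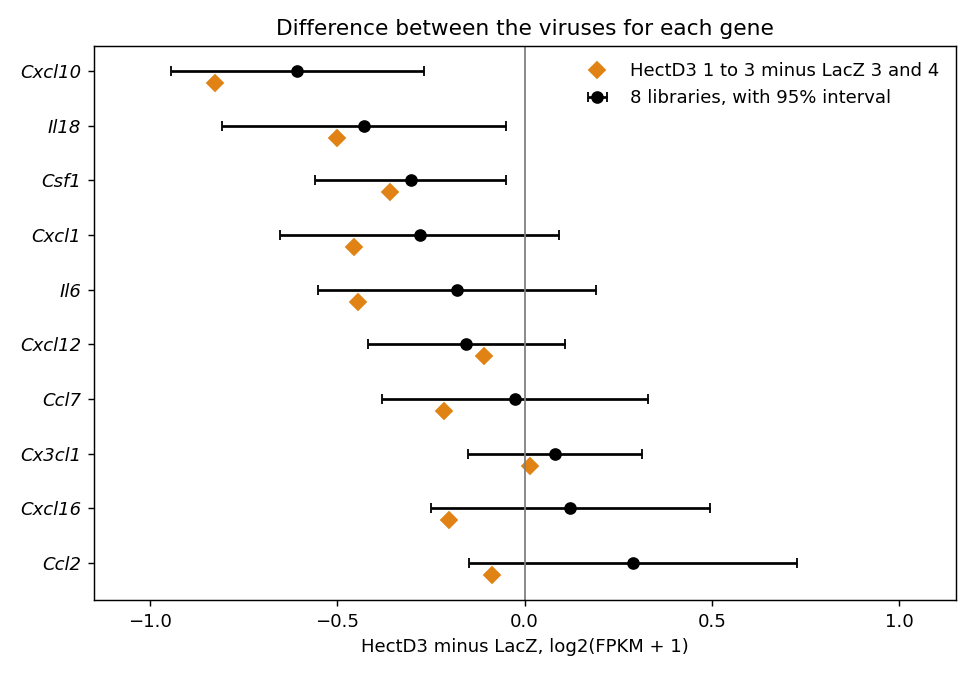
Difference HectD3 minus LacZ on the log2(FPKM + 1) scale (horizontal axis) for each gene: black points with 95% intervals are all 8 libraries, and orange diamonds are HectD3 1 to 3 minus LacZ 3 and 4. The intervals of Cxcl10, Il18 and Csf1 lie below 0, and Ccl2 and Cxcl16 change sign between the black points and the diamonds, from 0.29 to -0.09 and from 0.12 to -0.20.

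Ccl2 was the most abundant of the 10 genes in every library. It led with a mean of 121.7 FPKM over the 8 libraries, followed by Cxcl10 at 39.6, Cxcl16 at 34.9, Csf1 at 29.3, Ccl7 at 26.5, Cx3cl1 at 15.5, Cxcl1 at 7.08, Cxcl12 at 2.84, Il18 at 2.83 and Il6 at 0.700 FPKM. The ranges of Cxcl10 and Cxcl16, Cxcl16 and Csf1, Csf1 and Ccl7, and Cxcl12 and Il18 overlapped, so these neighbours were not separated by the spread over libraries; the other neighbours did not overlap. The position of Cxcl10 was not the same in the 2 groups, which was not tested: it was above Cxcl16 in 1 of 4 HectD3 libraries and in 4 of 4 LacZ libraries. Cxcl16 itself varied among LacZ libraries, at 24.1 and 29.1 FPKM in LacZ 1 and 2 and 39.8 and 42.1 FPKM in LacZ 3 and 4. Csf1 was above Ccl7 in 2 of 4 HectD3 libraries and in 4 of 4 LacZ libraries.

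The most abundant chemokine, Ccl2, and the next, Cxcl10, were also compared within each library, a pair chosen after their values were seen and therefore given with no test. The ratio of Cxcl10 to Ccl2 was 0.236, 0.212, 0.227 and 0.267 in HectD3 libraries, against 0.610, 0.435, 0.395 and 0.366 in LacZ libraries. Every HectD3 ratio was below every LacZ ratio, which adds little, since the levels of Cxcl10 alone were separated in the same way. The mean ratio was 0.236 ± 0.0235 with HectD3 and 0.452 ± 0.109 with LacZ (SD, n = 4 each). A ratio of FPKM within a library does not depend on the size of that library. The ratio of Ccl2 to its neighbour Ccl7 was 5.09 ± 0.383 with HectD3 and 4.13 ± 0.799 with LacZ (SD, n = 4 each), and here the groups overlapped.

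**Figure D3:**
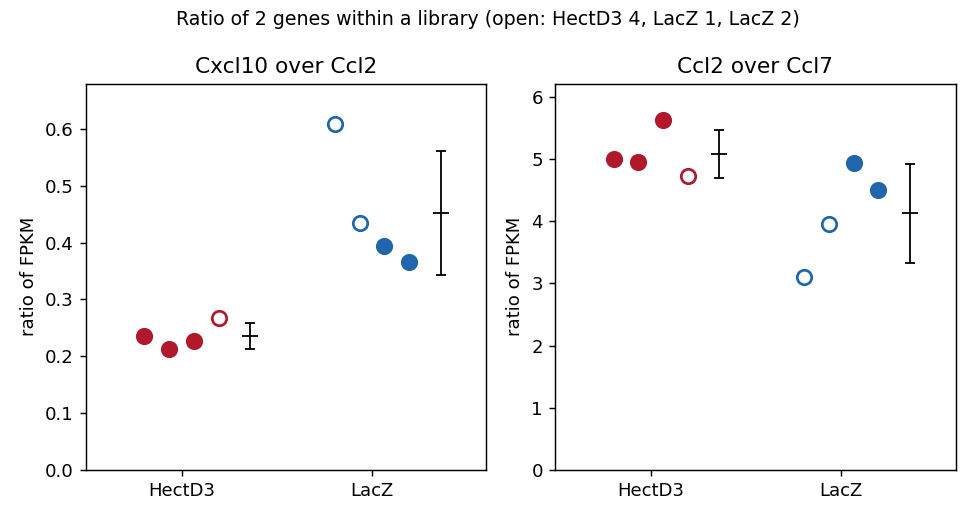
Ratio of Cxcl10 to Ccl2 (left) and of Ccl2 to Ccl7 (right) within each of the 4 HectD3 (red) and 4 LacZ (blue) libraries, with mean and SD; open points are HectD3 4, LacZ 1 and LacZ 2. The HectD3 ratios of Cxcl10 to Ccl2 reach 0.267 at most and the LacZ ratios start at 0.366.

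Single libraries stood out across the 10 genes. HectD3 3 was the lowest of the 8 libraries for 7 of the 10 genes, and for 17.2% of all genes tested. LacZ 3 was the highest for 3 of the 10, against 6.16% of all genes. HectD3 4 was the highest of the 4 HectD3 libraries for 7 of the 10 and for 42.0% of all genes. LacZ 1 and LacZ 2 were both below LacZ 3 and LacZ 4 for 7 of the 10, which 23.5% of all genes showed. The gap between those pairs was -0.60 for Ccl2 and -0.61 for Cxcl16 on the log2 scale, LacZ 1 and 2 minus LacZ 3 and 4, larger than the difference of either gene between the viruses. For Csf1 it was 0.05 and for Cxcl10 it was -0.17, both smaller than the difference between the viruses.

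In HectD3 1 to 3 against LacZ 3 and 4, 9 of the 10 genes were lower and only Cx3cl1 was marginally higher, at 0.01. At a nominal p below 0.05 in limma 6 were lower, Cxcl10, Csf1, Il18, Il6, Cxcl1 and Cxcl16, and none higher, where 4.32% of the 12482 genes tested were lower and 5.16% higher. None passed the adjusted p. The 2 groups of libraries did not overlap for 6 of the genes, Cxcl10, Cxcl12, Cxcl16, Csf1, Il18 and Il6, all lower, against 11.2% lower and 16.5% higher among all genes. The median of the 10 was -0.29, beside 0.02 for all genes. The libraries left out were not neutral for these genes. LacZ 1 and LacZ 2 were both below LacZ 3 and LacZ 4 for 7 of the 10. HectD3 4 was the highest HectD3 library for 7 of the 10. Leaving such libraries out lowers the difference of these genes, so the counts are no separate support for a difference between the viruses. The libraries that lay apart gave another picture. HectD3 4 was above both LacZ 1 and LacZ 2 for 5 genes, with a log2 difference from their mean of 0.82 for Ccl2 and 0.48 for Cxcl16. It was below both for 4 genes, at -0.57 for Il18 and -0.12 for Cxcl10. The shares of all genes were not computed for these counts, which rest on HectD3 4 alone. What set these 3 libraries apart was not tested.

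**Figure D4:**
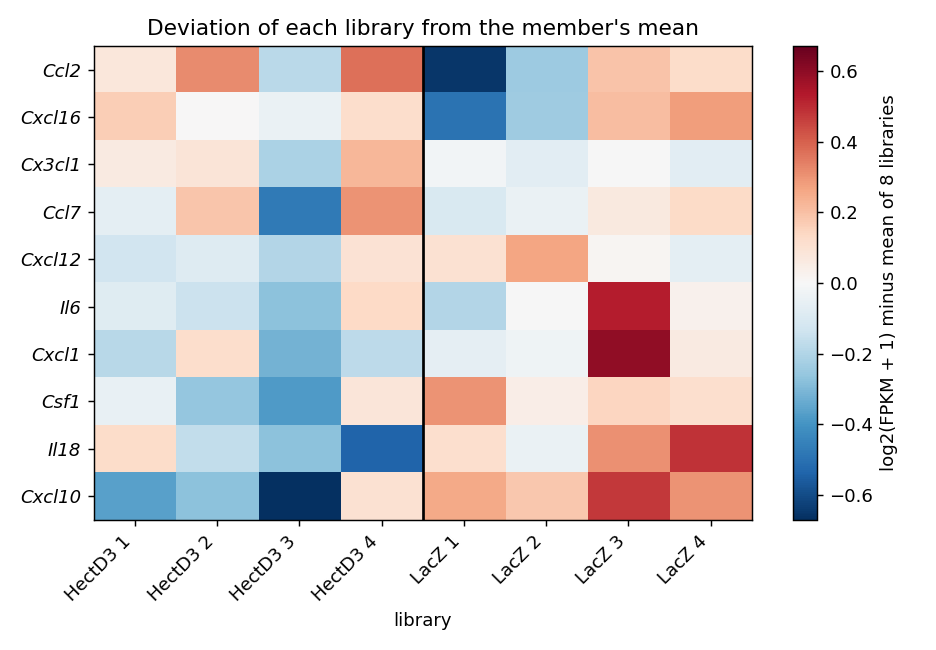
Deviation of each library (columns, HectD3 left of the black line, LacZ right of it) from the mean of the 8 libraries for each gene (rows), in log2(FPKM + 1), blue for lower and red for higher. HectD3 3 is the lowest library for 7 of the 10 genes, and the row of Cxcl10 is red in all 4 LacZ libraries and blue in HectD3 1 to 3.

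Chemokines act through receptors on the cells they attract. Of 23 chemokine receptors looked for, 6 were in the table and 5 were tested. Cxcr4 and Ackr3, the receptor and the scavenger of Cxcl12, are named for that role: Cxcr4 averaged 52.6 ± 7.81 FPKM in HectD3 libraries and 46.8 ± 3.78 FPKM in LacZ libraries, and Ackr3 10.2 ± 1.52 FPKM in HectD3 libraries and 9.51 ± 1.20 FPKM in LacZ libraries (SD, n = 4 each). Neither passed the test.

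Receptors of the cytokines were measured more fully. Csf1r, the receptor of Csf1, averaged 10.1 ± 0.806 FPKM in HectD3 libraries and 9.77 ± 1.18 FPKM in LacZ libraries. Il6st, or gp130, averaged 36.5 ± 6.69 FPKM in HectD3 libraries and 41.1 ± 2.33 FPKM in LacZ libraries, and Il6r 1.38 ± 0.247 FPKM in HectD3 libraries and 1.70 ± 0.531 FPKM in LacZ libraries (SD, n = 4 each). Of these 3 tested receptors none had a nominal p below 0.05.

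Among 12 tested enzymes and decoys that release or bind these proteins, 8 had lower and 4 had higher levels with HectD3, and 1 was lower at a nominal p below 0.05. That was Il18bp, the soluble decoy that neutralises Il18. It held 7.13, 6.09, 7.49 and 9.88 FPKM in HectD3 libraries, against 12.2, 11.5, 8.98 and 8.42 FPKM in LacZ libraries, and the groups overlapped through HectD3 4. Its log2 difference was -0.38 (nominal p = 0.0410, exact permutation p = 0.0857, adjusted p = 0.689 in limma). The sheddases Adam10, at 23.2 ± 5.77 FPKM in HectD3 libraries and 27.7 ± 8.76 FPKM in LacZ libraries, and Adam17, at 19.9 ± 0.438 FPKM in HectD3 libraries and 20.8 ± 1.94 FPKM in LacZ libraries, did not pass the test, nor did Casp1, the protease that matures Il18 (SD, n = 4 each).

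Of 29 regulators known to act on these genes, all were tested, 16 with lower and 13 with higher levels, 4 lower and 1 higher at a nominal p below 0.05. Irf7, Stat2 and Irf9, among the lower ones, act in the response to interferons. Irf7 averaged 209 ± 41.7 FPKM in HectD3 libraries and 285 ± 29.7 FPKM in LacZ libraries (SD, n = 4 each), a log2 difference of -0.46 (nominal p = 0.00850, exact permutation p = 0.0571, adjusted p = 0.567 in limma). Stat2 held 30.8, 40.0, 27.9 and 47.0 FPKM in HectD3 libraries, against 84.5, 63.5, 45.4 and 43.7 FPKM in LacZ libraries. Its groups overlapped where HectD3 4 exceeded LacZ 3 and LacZ 4, and its log2 difference was -0.67 (nominal p = 0.0173, exact permutation p = 0.0857, adjusted p = 0.662 in limma). The higher one was Cebpd, a transcription factor induced by Il6, at 13.7 ± 0.998 FPKM in HectD3 libraries and 11.6 ± 0.868 FPKM in LacZ libraries (SD, n = 4 each; nominal p = 0.0426, exact permutation p = 0.0286, adjusted p = 0.690 in limma), with no overlap of the groups. None of the NF-kB subunits Rela, Relb, Rel, Nfkb1 and Nfkb2 had a nominal p below 0.05.

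Other chemokine ligands were spread evenly around 0. Of 29 looked for, 17 were in the table and 16 were tested, 8 with lower and 8 with higher levels, and none in either direction had a nominal p below 0.05. Cxcl9 and Cxcl11 are named because they bind the same receptor as Cxcl10, and whether they differed from it was not tested. Cxcl9 averaged 0.720 ± 0.325 FPKM in HectD3 libraries and 1.03 ± 0.375 FPKM in LacZ libraries, with 3 of 4 HectD3 libraries below the lowest LacZ library and a HectD3 mean 30.2% below, and Cxcl11 averaged 9.58 ± 5.66 FPKM in HectD3 libraries and 8.97 ± 2.25 FPKM in LacZ libraries (SD, n = 4 each).

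**Figure D5:**
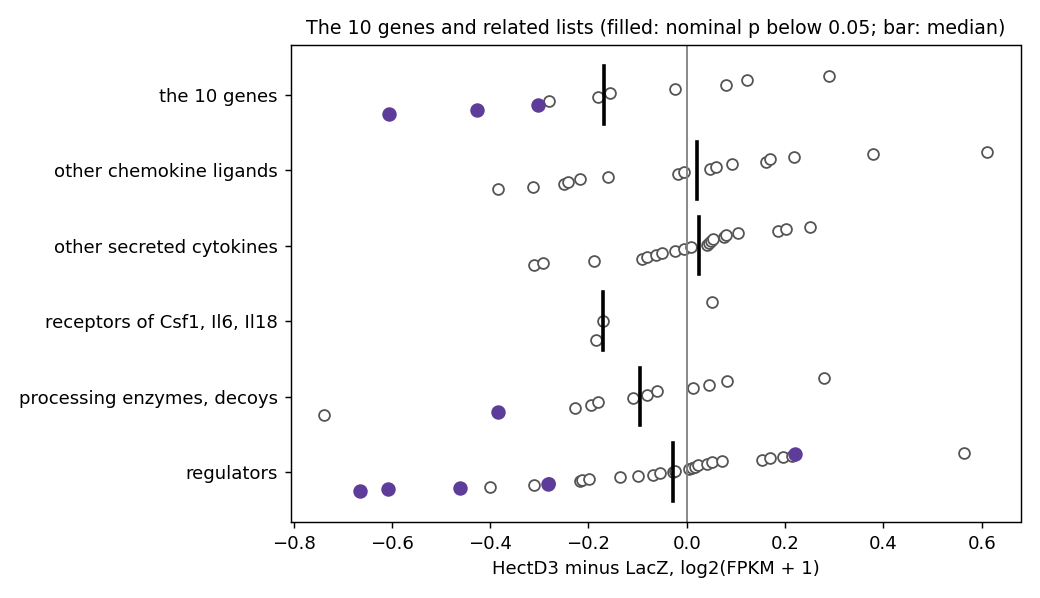
Difference HectD3 minus LacZ on the log2(FPKM + 1) scale (horizontal axis) for the 10 genes and 5 lists of related genes (rows), 1 point for each gene tested, filled where the nominal p was under 0.05, with a bar at the median of each row. The median is -0.17 for the 10 genes, 0.02 for the other chemokine ligands and -0.03 for the regulators.

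Which cells made these RNAs was not tested. The cultures held RNA of other cell types beside cardiomyocytes. For leukocytes, 14 of 20 markers were in the table, and their summed level was 466 to 593 FPKM in HectD3 libraries and 422 to 550.2 FPKM in LacZ libraries. Among these 14, 12 had higher levels with HectD3, of which 1 was higher at a nominal p below 0.05, the macrophage marker Adgre1. For fibroblasts, 11 of 12 markers summed to 1915 to 2162 FPKM in HectD3 libraries and 1894 to 2185 FPKM in LacZ libraries. Of these, 5 had lower and 6 had higher levels with HectD3. Endothelial markers, 11 of 12, summed to 165 to 196 FPKM in HectD3 libraries and 156 to 185 FPKM in LacZ libraries. Of these, 3 had lower and 8 had higher levels with HectD3, 2 of them higher at a nominal p below 0.05, Emcn and Cldn5. Smooth muscle and pericyte markers, 9 of 9, summed to 2693 to 4159 FPKM in HectD3 libraries and 2337 to 4616 FPKM in LacZ libraries. Of these, 5 had lower and 4 had higher levels with HectD3, and Myh11 was lower at a nominal p below 0.05. The summed levels of all 4 lists overlapped between the viruses, and no marker among those measured was at 0 in all libraries. A sum follows its most abundant genes, such as Lyz2 at 251 to 363 FPKM among the leukocyte markers. Taken singly, the groups did not overlap for Emcn, which was higher, and Myh11, which was lower. Among all genes tested, 2.44% had no overlap in the higher direction and 2.81% in the lower. The part of these cells in the lower Cxcl10, Csf1 and Il18 was not tested.

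The gene most like each of the 10 in its pattern over the 8 libraries was sought among 11872 genes, as a description. The points share libraries, and the 3 libraries that lay apart weigh on every such correlation. Cxcl10 was most like Gbp2, an interferon-induced GTPase, with Pearson r = 0.994 over 8 libraries. Cxcl16 was most like Aida, at r = 0.996, and Ccl2 most like Cmtm6, at r = 0.982. Csf1 was most like Smox, the spermine oxidase, at r = 0.970, and Cx3cl1 most like Med10, a subunit of the Mediator complex, at r = 0.970. Ccl7 was most like Slco4a1, at r = 0.957, Cxcl12 most like RT1-T24-2, at r = 0.958, and Il18 most like ST7, at r = 0.961. Il6, compared with 11873 genes, was most like Rpl34-ps1, at r = 0.944. For Cxcl1 the highest value was 0.907, with Nlrp1a, the lowest among the 10. None of the 10 genes had another of the 10 as its nearest.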

How the data were processed

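RNA-seq was measured in 8 NRVCM libraries, 4 with the HectD3 and 4 with the LacZ virus, grouped by the labels. The authors trimmed reads with cutadapt, aligned them with HISAT2, assembled transcripts with StringTie and wrote the deposited FPKM per transcript with Ballgown; their versions, the build and the gene models were not given in the sources used here. FPKM is scaled for transcript length and library size. The table gives no counts, so depth is unknown, no counting interval could be given and no count model was used. FPKM was summed over the transcripts of a gene symbol.

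Genes averaging 0.5 FPKM or more, 12567 in number, entered a two-sided limma test (3.58.1, in R 4.3.3) of log2(FPKM + 1), with an intensity trend and Benjamini-Hochberg adjustment over all of them. Fold changes on that scale understate the change of low genes. Single genes also had an exact permutation test over the 70 assignments of the libraries. Ballgown, named in the study's methods, fits an ordinary linear model with library size, which was an alternative. The others were pseudocounts of 0.1 and 0.5, a minimum mean of 5 FPKM or none, scaling to TPM, by median ratios or by quantiles, only the most abundant transcript of a gene, limma with no trend, robust or with weights for libraries, the first principal component as a covariate, the replicate block, HectD3 1 to 3 against LacZ 3 and 4, and leaving out each library. Names of list genes were matched by symbol and by RefSeq synonyms (GRCr8), and promoters came from RefSeq GRCr8. The test was also run on simulated data, with changes of known size and independent noise for each gene. Libraries that lie apart across many genes were not simulated, so the simulation cannot show how the test behaves with them.

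The 10 genes, the lists and the tests were chosen with earlier results of these data known. Named genes were Hectd3, the 10 genes, the gene most like each by Pearson correlation among those averaging 1 FPKM or more, and from each list up to 2 genes each way with the smallest nominal (unadjusted) p below 0.05; others are named with their reason or after their values were seen. No pairing of the libraries by replicate number was given, and the main test did not use one. Results of some list genes are not reported here, though these genes were part of every fit.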

Additional observations from a re-analysis of the deposited data

Results flagged for a closer look

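Of 22 groups of 4 libraries searched for 1 library far from the other 3, 1 was picked out, and chance picks out about 1 in 20 such groups. Cxcl1 lay between 5.39 and 7.62 FPKM in the HectD3 libraries, and in the LacZ libraries 1 value stood apart: LacZ 3 held 10.98 FPKM, where the other LacZ libraries held 6.61, 6.78 and 7.28 FPKM. It was also the highest of the 8 libraries for Cxcl10 and Il6.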

How the results depend on the processing

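Cxcl10 was lower at a nominal p below 0.05 in all 23 alternatives, with a log2 difference between -0.83 and -0.48 and an adjusted p in limma or the linear model between 0.0534 and 0.873. Csf1 was lower by this rule in 19 of 23 and Il18 in 15 of 22. No gene of the 10 passed an adjusted p of 0.05, and none was higher at a nominal p below 0.05, in any of the 23. HectD3 1 to 3 against LacZ 3 and 4 gave 6 lower genes and 6 with no overlap, with Ccl2 at -0.0877 and Cxcl16 at -0.20. Leaving out 1 library at a time gave 1 to 3 lower genes, with Cxcl10 alone left without HectD3 2 and without HectD3 3, and 1 to 3 genes with no overlap, Cx3cl1 being higher without HectD3 3. TPM gave 2 genes with no overlap, Cxcl10 and Csf1. For TPM, the replicate block and leaving out a library, shares of all genes were not computed. This holds for genes with no overlap and for genes lower at a nominal p below 0.05. Cxcl16 turned to -0.14 with library weights, -0.0547 in the ordinary linear model, -0.028 with the first principal component and -0.0221 without LacZ 1, within a leave-one-out range of -0.02 to 0.24. Ccl7, near 0, turned to 0.01 in the ordinary linear model, where the value was 0.0076, and ranged from -0.13 to 0.13 on leaving out a library. Hectd3 stayed at 5.83 in the ordinary linear model, but with an adjusted p of 0.219. The cause of these changes was not tested. With the replicate block, 2 of the 10 were lower at a nominal p below 0.05, and Cxcl10 had an adjusted p of 0.873 in limma. Deviations of same-numbered libraries correlated at -0.373, -0.009, 0.338 and -0.613, which shows no steady pairing by number. HectD3 4, LacZ 1 and LacZ 2 weigh on these correlations, so they cannot exclude a shared preparation. The mean of at least 5 FPKM left 7 of the 10 genes, without Cxcl12, Il18 and Il6. Depth is unknown, which limits the low genes Il6, Il18 and Cxcl12 most.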

Other observations

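Other secreted cytokines were measured in the same libraries. Of 41 looked for, 22 were in the table and 20 were tested, 9 with lower and 11 with higher levels with HectD3, and none in either direction had a nominal p below 0.05; by limma none passed the adjusted p. Their median log2 difference was 0.03. Mif, a constitutively made cytokine and the most abundant of them, averaged 52.7 ± 5.10 FPKM in HectD3 libraries and 52.9 ± 4.66 FPKM in LacZ libraries (SD, n = 4 each). Il1b, a cytokine cleaved by caspase-1 as Il18 is, averaged 2.33 ± 0.787 FPKM in HectD3 libraries and 1.75 ± 0.316 FPKM in LacZ libraries, and Tnf averaged 0.723 ± 0.220 FPKM in HectD3 libraries and 0.660 ± 0.0725 FPKM in LacZ libraries (SD, n = 4 each). These genes were named after their values were seen.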
